A study of Mus musculus with 22 samples.

Results

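Calmodulin is the small calcium sensor of the cell, and the calmodulin-dependent kinases are the enzymes it switches on. The measurements below cover 9 genes of this system in the mouse hippocampus, namely the calmodulin genes Calm2 and Calm3, the 4 subunit genes of calmodulin kinase II (Camk2a, Camk2b, Camk2d and Camk2g), calmodulin kinase IV (Camk4), its activating kinase (Camkk2) and neurogranin (Nrgn). The members are all non-control probes whose RefSeq transcript belongs to 1 of these genes, which gave 18 probes of 55681 on the array and 9 genes of 21176 with a symbol. The gene names were chosen by family, with the intensities of the 3-month comparison already known, so its differences between genotypes are given as a description. No p-value is printed for a member, and counts of members past a threshold are set beside the share of all probes and support nothing by themselves. All 18 probes were well above background on all 22 arrays, so every member was measured in every mouse and none was lost to a filter on low values.

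The study asked what a lasting excess of proNGF, the precursor of nerve growth factor, does to the hippocampus. TgproNGF#3 mice carry a proNGF complementary DNA with a mutated furin site, followed by an internal ribosome entry site and EGFP, under the Thy1.2 promoter, which drives brain-specific expression in the adult. They are 1 founder line in a C57Bl/6xDBA/2 background, and wild-type (WT) mice of that background without the transgene were the controls. Neither genotype received any treatment. RNA from the hippocampus of the right hemisphere was labelled with 1 dye and hybridized to Agilent arrays, 1 mouse per array. There were 4 TgproNGF#3 and 4 WT males at 1 month, 4 and 4 males at 3 months, and 3 and 3 females at 12 months. Each age had its own slide, so effects of age cannot be told apart from those of sex or slide, and levels were compared only within an age. The files do not say whether mice came from separate litters, and the spread measured is that between these mice. Their number, 3 or 4 in each group, limits the precision.

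A level below is the log2 intensity of a probe minus the 75th percentile (log2) of the spots used on that array. A level of 0 is thus as bright as the 75th percentile of its array, and levels of different probes were not set against each other. The Log2 FC is the mean TgproNGF#3 level minus the mean WT level, with its standard error (SE) from limma. Fewer cells of a type and less RNA per cell cannot be told apart in RNA from whole tissue. The 75th percentile lay between 10.41 and 11.96 over all arrays. At 3 months it was 11.58 and 11.79 on the arrays of TgproNGF#3 mice 1 and 4 and between 10.72 and 11.50 on the other 6 arrays, and the array of TgproNGF#3 mouse 4 had the smallest share of spots well above background of all 22 arrays (57.6%). Their part in the results was not tested. In the hippocampal arrays the defining markers of excitatory forebrain neurons, such as Slc17a7, and of CA1 pyramidal and dentate granule neurons were all above background on every array.

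When calcium enters a neuron through its receptors and channels, calmodulin binds it, changes shape and attaches to its target enzymes. Calmodulin kinase II is a ring of subunits that phosphorylate each other and so stay active after the calcium is gone, and it is known as the central kinase of long-term potentiation in the hippocampus. The alpha and beta subunits are the neuronal ones, while delta and gamma are found in many tissues. Another arm runs through CaMKK2, which phosphorylates CaMKIV in the nucleus, where CaMKIV activates CREB, the factor that binds cAMP response elements (CRE). Neurogranin holds calcium-free calmodulin close to the postsynaptic membrane and releases it when calcium rises.

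Among the 4 genes with a probe on which all TgproNGF#3 mice of 3 months lay below all WT mice, promoter windows were used for Calm3 and Camk2b. They are shown because CREB lies downstream of this pathway, and windows of the other 2 genes, Camk2a and Camk4, were not used here. Each window holds the 250 bases before the RefSeq start on the minus strand of GRCm38.p6, written 5′ to 3′, in capitals the CRE core TGACG and the GC box GGGCGG, searched on both strands together with the full CRE TGACGTCA. The windows are chr7:16924033-16924282 for Calm3 and chr11:6065749-6065998 for Camk2b.
Calm3: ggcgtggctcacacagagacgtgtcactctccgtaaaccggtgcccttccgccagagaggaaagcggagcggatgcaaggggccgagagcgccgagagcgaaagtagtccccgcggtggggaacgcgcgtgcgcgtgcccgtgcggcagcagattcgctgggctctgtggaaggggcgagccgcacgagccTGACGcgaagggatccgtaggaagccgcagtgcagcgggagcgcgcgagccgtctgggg
Camk2b: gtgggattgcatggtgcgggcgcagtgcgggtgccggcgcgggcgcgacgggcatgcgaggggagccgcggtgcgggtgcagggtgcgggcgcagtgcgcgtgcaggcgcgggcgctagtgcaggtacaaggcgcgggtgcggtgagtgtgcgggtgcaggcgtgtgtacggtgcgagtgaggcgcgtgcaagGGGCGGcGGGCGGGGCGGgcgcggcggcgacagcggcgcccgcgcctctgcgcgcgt
The Calm3 window held 1 match to TGACG, 59 bases before the start, and none to the GC box. The Camk2b window held 3 GC boxes, beginning 57, 50 and 45 bases before the start, of which the last 2 share a base, and no TGACG. Neither held the full CRE. Over 32851 windows of this length, TGACG was found in 17.8%, GGGCGG in 32.7% and TGACGTCA in 1.55%, and TGACGTCA holds TGACG within it. G and C made up 69.2% of the Calm3 window and 78.4% of the Camk2b window, against a median of 52.4% over all windows. A match in these letters is a description and not a binding site. Windows of Camk2d, Camkk2 and Nrgn were also searched, and held 3, 1 and 1 GC boxes and no TGACG.

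At 3 months the Log2 FC of the members was below 0 on 13 of 18 probes and above 0 on 5, where 62.7% of all 33593 probes tested were below 0. It ran from -1.63 to 0.48 with a median of -0.32, while the median over all probes was -0.12. Probes of Calm3, Camk2a and Camk4 were called lower at the study's threshold (Log2 FC below -1 and p below 0.05 before adjustment), which makes 3 of 18 where 6.12% of all probes were called lower. None was called higher, against 0.643% of all probes, and 6 were below an unadjusted p of 0.05, against 27.2%. At a Benjamini-Hochberg adjusted p below 0.05 without a fold threshold, 4 member probes were lower, both of Calm3 and 1 each of Camk2a and Camk2b, where 6.85% of all probes were, and none was higher, against 1.57%. The groups did not overlap on 5 member probes, those 4 and 1 of Camk4, and all 5 were lower, where 14.6% of all probes lay apart in that direction and 5.78% in the other. These counts use the contrast that was known when the family was proposed, and nothing is read from them.

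**Figure D1:**
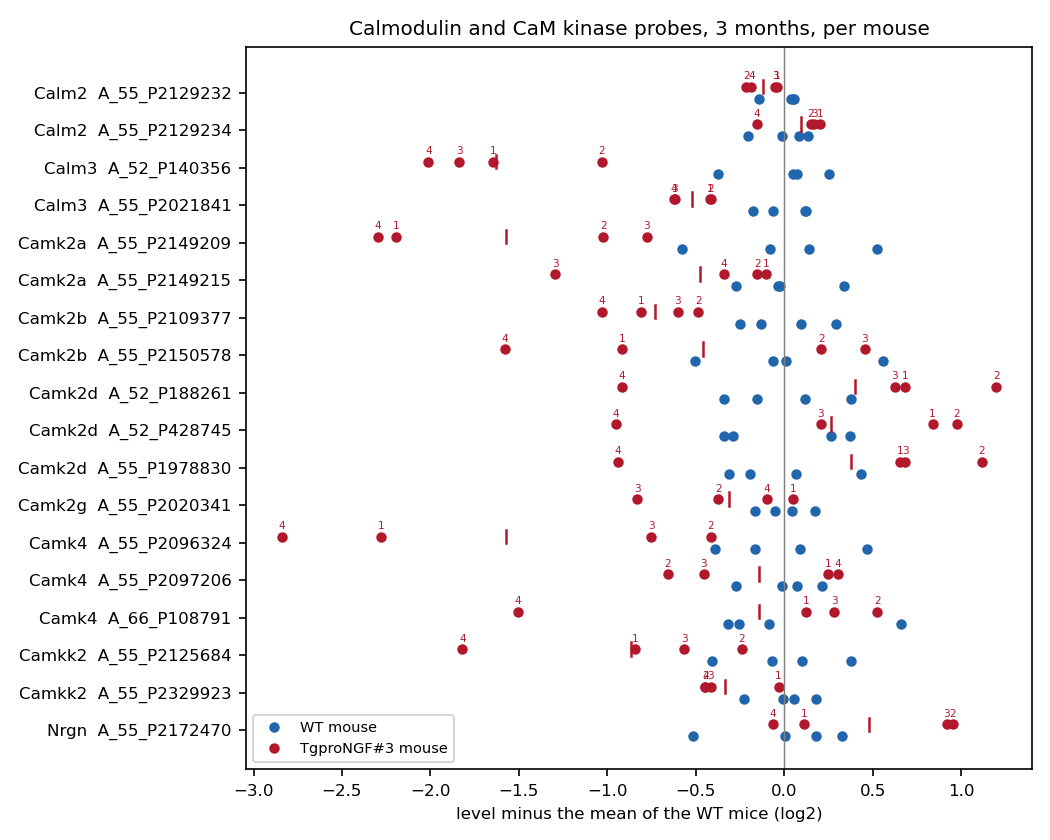
Level of each member probe in each mouse of 3 months, minus the mean level of the 4 WT mice (log2, horizontal axis), with WT mice in blue, TgproNGF#3 mice in red with their replicate number, and a bar at the TgproNGF#3 mean. All 4 red points lie left of all blue points on 5 probes, those of Calm3 (2 probes), Camk2a, Camk2b and Camk4, while on the 3 Camk2d probes mouse 4 lies left and the other 3 red points right of the WT mean.

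Calm3, 1 of the genes that encode calmodulin, was lower on both of its probes at 3 months, but by different amounts. On A_52_P140356 the 4 TgproNGF#3 mice had levels of 1.50, 2.12, 1.31 and 1.14 and the 4 WT mice 3.22, 2.77, 3.40 and 3.20. The highest TgproNGF#3 mouse was thus below the lowest WT mouse, and the mean fell short of WT by a Log2 FC of -1.63 (SE 0.23), or 32.3% of the WT level. On A_55_P2021841 the levels were 3.78, 3.78, 3.58 and 3.57 in TgproNGF#3 and 4.32, 4.02, 4.31 and 4.13 in WT. Here too the groups did not overlap, with a Log2 FC of -0.52 (SE 0.14), or 69.8% of the WT level. Leaving out any 1 mouse moved the Log2 FC of A_52_P140356 only between -1.83 and -1.51 and that of A_55_P2021841 between -0.58 and -0.48.

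Calm2, which encodes the same protein, had groups that overlapped on both of its probes. Levels on A_55_P2129232 were 5.47, 5.29, 5.46 and 5.32 in TgproNGF#3 and 5.56, 5.36, 5.55 and 5.55 in WT, a Log2 FC of -0.12 (SE 0.12). On A_55_P2129234 they were 6.39, 6.33, 6.35 and 6.03 in TgproNGF#3 and 6.32, 5.98, 6.27 and 6.17 in WT, a Log2 FC of 0.09 (SE 0.14). TgproNGF#3 mice 2 and 4 lay below all WT mice on the former probe and mice 1, 2 and 3 above them all on the latter, so the signs were opposite, and that of A_55_P2129232 turned to 0.01 when dim spots were kept or when the 75th percentile was taken over all spots.

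Camk2a, the alpha subunit of calmodulin kinase II, was called lower on 1 of its 2 probes. On A_55_P2149209 TgproNGF#3 mice had levels of -2.39, -1.22, -0.98 and -2.50 and WT mice 0.32, -0.78, -0.28 and -0.06. The groups did not overlap, but mice 1 and 4 lay more than 1 log2 unit below the other two, so that the SD was 0.78 in TgproNGF#3 and 0.46 in WT (n = 4 each). The Log2 FC was -1.57 (SE 0.38), or 33.6% of the WT level. On the other probe, A_55_P2149215, the levels were 2.70, 2.66, 1.51 and 2.47 against 2.78, 2.77, 3.15 and 2.53. It was now mouse 3 that was low, the groups overlapped, and the Log2 FC of -0.47 (SE 0.27) shrank to -0.20 without that mouse.

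Camk2b, the beta subunit, which anchors the kinase to actin filaments, was lower on A_55_P2109377. Its levels there were 4.49, 4.81, 4.69 and 4.26 in TgproNGF#3 and 5.58, 5.04, 5.16 and 5.39 in WT. The groups did not overlap, and the Log2 FC of -0.73 (SE 0.18), or 60.2% of the WT level, was past the adjusted threshold but did not reach the fold threshold. On A_55_P2150578 the levels were -0.65, 0.48, 0.72 and -1.31 in TgproNGF#3 and 0.83, -0.23, 0.28 and 0.21 in WT. Mice 1 and 4 lay below all WT mice and mice 2 and 3 within their range, and the Log2 FC of -0.46 (SE 0.43) ranged from -0.76 without mouse 3 to -0.08 without mouse 4.

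Camk2d, the delta subunit, had its 3 probes on the other side of 0. On A_55_P1978830 the levels were -1.69, -1.23, -1.66 and -3.29 in TgproNGF#3 and -2.65, -2.28, -1.91 and -2.54 in WT. TgproNGF#3 mice 1, 2 and 3 were above all WT mice and mouse 4 was below them all, an order that A_52_P188261 shared. The Log2 FC was 0.40, 0.27 and 0.38 on A_52_P188261, A_52_P428745 and A_55_P1978830, with an SE of 0.40 on each, and 0.84, 0.67 and 0.82 without mouse 4. Without TgproNGF#3 mouse 2 it was 0.13, 0.03 and 0.13. Camk2g, the gamma subunit, read 3.87, 3.44, 2.98 and 3.72 in TgproNGF#3 on its probe A_55_P2020341 and 3.76, 3.65, 3.99 and 3.86 in WT. Its groups overlapped, with a Log2 FC of -0.31 (SE 0.20) that leaving out any 1 mouse moved between -0.43 and -0.14.

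Camk4 was called lower on 1 of 3 probes. On A_55_P2096324 the levels were -5.95, -4.09, -4.42 and -6.51 in TgproNGF#3 and -3.58, -4.06, -3.20 and -3.84 in WT. The groups only just did not overlap, through TgproNGF#3 mouse 2 and WT mouse 2, while mice 1 and 4 lay far below the rest. The Log2 FC was -1.57 (SE 0.50), or 33.7% of the WT level, with the adjusted p above 0.05, and it was -1.15 without mouse 4 and -0.91 after normexp background correction, where the call was lost. The other Camk4 probes, A_55_P2097206 and A_66_P108791, each had a Log2 FC of -0.14 (SE 0.24 and 0.42) and overlapping groups. Mouse 4 was the highest of its group on the former (1.75) and the lowest on the latter (-3.42), and leaving it out moved the latter to 0.31.

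Camkk2, the kinase upstream of Camk4, leaned lower on both probes with groups that overlapped. On A_55_P2125684 TgproNGF#3 mice had levels of -2.70, -2.10, -2.42 and -3.68 and WT mice -1.76, -2.27, -1.48 and -1.92, a Log2 FC of -0.87 (SE 0.32). It reached the study's threshold when TgproNGF#3 mouse 2 or WT mouse 2 was left out, with 4 members then called. Without TgproNGF#3 mouse 4 the Log2 FC was -0.55. On A_55_P2329923 the levels were 3.36, 2.95, 2.98 and 2.95 against 3.58, 3.16, 3.39 and 3.45, with a Log2 FC of -0.33 (SE 0.15).

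Nrgn, whose product binds calmodulin when calcium is low, had the highest Log2 FC of the members at 3 months with all mice in the fit. Its levels were 3.14, 3.98, 3.95 and 2.96 in TgproNGF#3 and 3.36, 3.03, 2.52 and 3.21 in WT. Mice 2 and 3 were above all WT mice and mice 1 and 4 within their range, so the groups overlapped, with a Log2 FC of 0.48 (SE 0.28). Over the 18 probes, TgproNGF#3 mice 1 and 4 were both below mice 2 and 3 on 8, of Camk2a, Camk2b (both), Camk2d, Camk4 (2 probes), Camkk2 and Nrgn, and both above them on 2, Camk4 A_55_P2097206 and Camk2g.

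At 1 month no member reached the fold threshold. The Log2 FC of the 18 probes ran from -0.52 to 0.29 with a median of -0.01 (all 40536 probes 0.07). With limma no member was called, where 0.328% of all probes were called lower and 0.242% higher, and 1 member probe, Camk4 A_55_P2096324, was below an unadjusted p of 0.05, as 3.47% of all probes were. The split of those calls moved with the scaling, from 133 lower and 98 higher to 152 and 167 with arrays aligned to their median, with no member among them. The levels of Camk4 A_55_P2096324 were -2.80, -3.35, -2.59 and -3.25 in TgproNGF#3 and -2.45, -2.71, -2.18 and -2.56 in WT. The groups overlapped by TgproNGF#3 mouse 3, and the Log2 FC was -0.52 (SE 0.22). The sample titles give replicate numbers but no pairing, and same-numbered arrays of this age were taken as pairs from the correlations given below. Within these 4 pairs the TgproNGF#3 mouse minus the WT mouse was -0.35, -0.63, -0.42 and -0.69 on this probe. Camk2a A_55_P2149209 and Camk2d A_52_P188261 were also lower in 4 of 4 pairs, though with differences of only -0.03 and -0.01 in pair 4. This makes 3 of 18 member probes lower in every pair, where 3.42% of all probes were, and 0 higher in every pair, against 8.24%, and no member was called with the pairs as a block. On no member probe were the groups of 1 month apart, while 1.33% of all probes lay apart with TgproNGF#3 lower and 2% with TgproNGF#3 higher.

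At 12 months the Log2 FC ran from -0.34 to 0.70 with a median of 0.07 (all 34064 probes 0.01). Again limma called no member, against 0.992% of all probes lower and 0.311% higher, and no member was below an unadjusted p of 0.05, where 9.05% of all probes were. The groups lay apart on 3 member probes, all with TgproNGF#3 higher, where 7.42% of all probes did so and 8.12% lay apart the other way. These were Calm2 A_55_P2129234, Calm3 A_52_P140356 and Camk2b A_55_P2109377, with a Log2 FC of 0.21, 0.12 and 0.10 (SE 0.13, 0.12 and 0.12). The Calm3 levels on A_52_P140356 were 2.90, 2.99 and 3.01 in TgproNGF#3 and 2.86, 2.82 and 2.86 in WT, a narrow band in which no mouse of either genotype was low.

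Above 0 at 12 months were 15 of the 18 probes, where 51.2% of all probes were, but this count depended on the scaling. It was 9 of 18 with the authors' log2 values and 16 of 18 with arrays aligned to their median, a scaling that moved the median of all probes to 0.16 and the calls over all probes from 338 lower and 106 higher to 242 and 195. The highest value was that of Camk4 A_55_P2097206, on which TgproNGF#3 mice had levels of 1.89, 1.67 and 2.05 and WT mice 0.53, 1.03 and 1.94. WT mouse 3 lay within the TgproNGF#3 range, and the Log2 FC of 0.70 (SE 0.34) became 1.09, past the study's threshold, without it. The 3 TgproNGF#3 arrays shared a row of the slide with WT mouse 3 alone, and with the array row as a block the Log2 FC was -0.07.

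**Figure D2:**
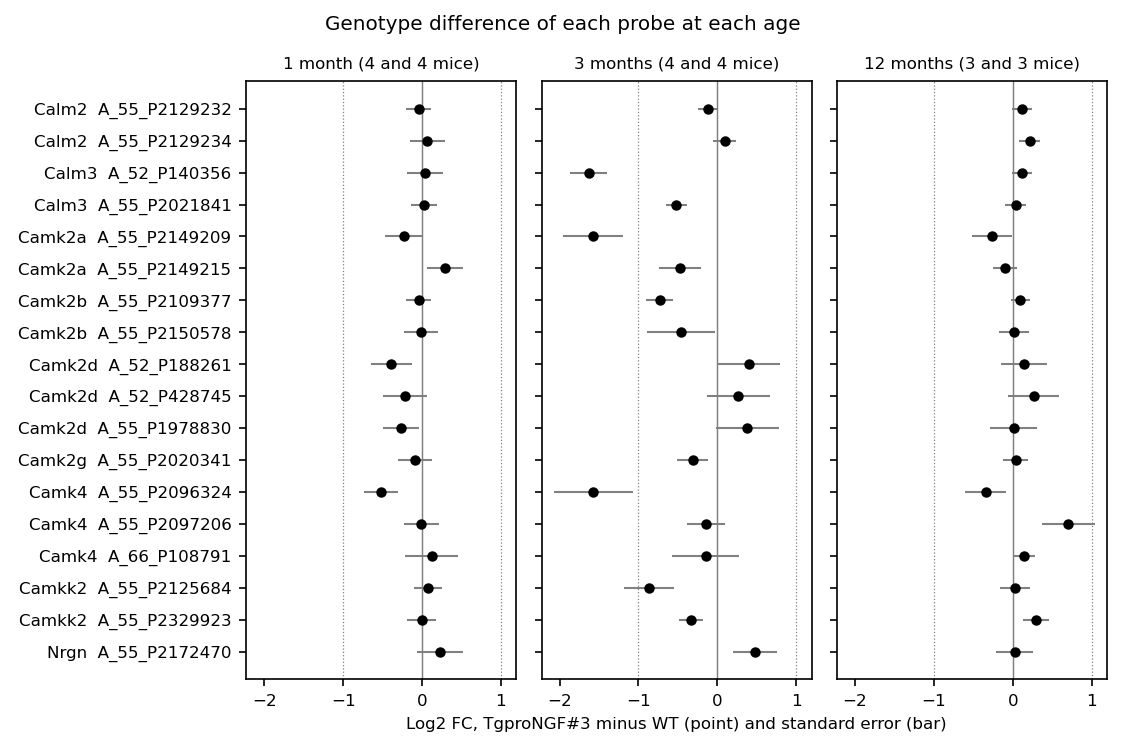
Log2 FC (TgproNGF#3 minus WT, points) and its standard error (bars) for the 18 member probes at 1, 3 and 12 months, with dotted lines at -1 and 1. At 1 month all points lie between -0.52 and 0.29 and at 12 months between -0.34 and 0.70, and at 3 months 3 probes, of Calm3, Camk2a and Camk4, pass -1.

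Probes of 1 gene did not always move together. The difference between 2 probes on the same array, set to 0 at the WT mean of the age, is free of the scaling of that array. For Calm3 the difference A_52_P140356 minus A_55_P2021841 averaged -1.11 ± 0.34 (SD, n = 4) in TgproNGF#3 mice of 3 months and lay between -1.39 and -0.62, while WT mice lay between -0.20 and 0.14. The 2 probes of Calm3 were thus lowered unequally in each of the 4 mice. At 1 and 12 months the same difference averaged 0.01 ± 0.30 (n = 4) and 0.08 ± 0.17 (n = 3) and overlapped WT.

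For Camk2a the difference A_55_P2149209 minus A_55_P2149215 averaged -1.10 ± 1.21 (SD, n = 4) at 3 months. It ranged from -2.09 to 0.52 and overlapped WT, so that the disagreement of these probes was one between mice as much as between genotypes. For Camk4, A_55_P2096324 minus A_66_P108791 averaged -1.43 ± 0.67 and lay between -2.40 and -0.94, apart from WT (-0.19 to 0.17). Against the third probe, A_55_P2097206, the difference averaged -1.43 ± 1.66 and overlapped WT. The 3 probes of Camk2d differed in Log2 FC by at most 0.13 at 3 months, 0.17 at 1 month and 0.25 at 12 months. At 12 months A_52_P428745 minus A_55_P1978830 lay between 0.23 and 0.27 in TgproNGF#3, above WT (-0.13 to 0.16).

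**Figure D3:**
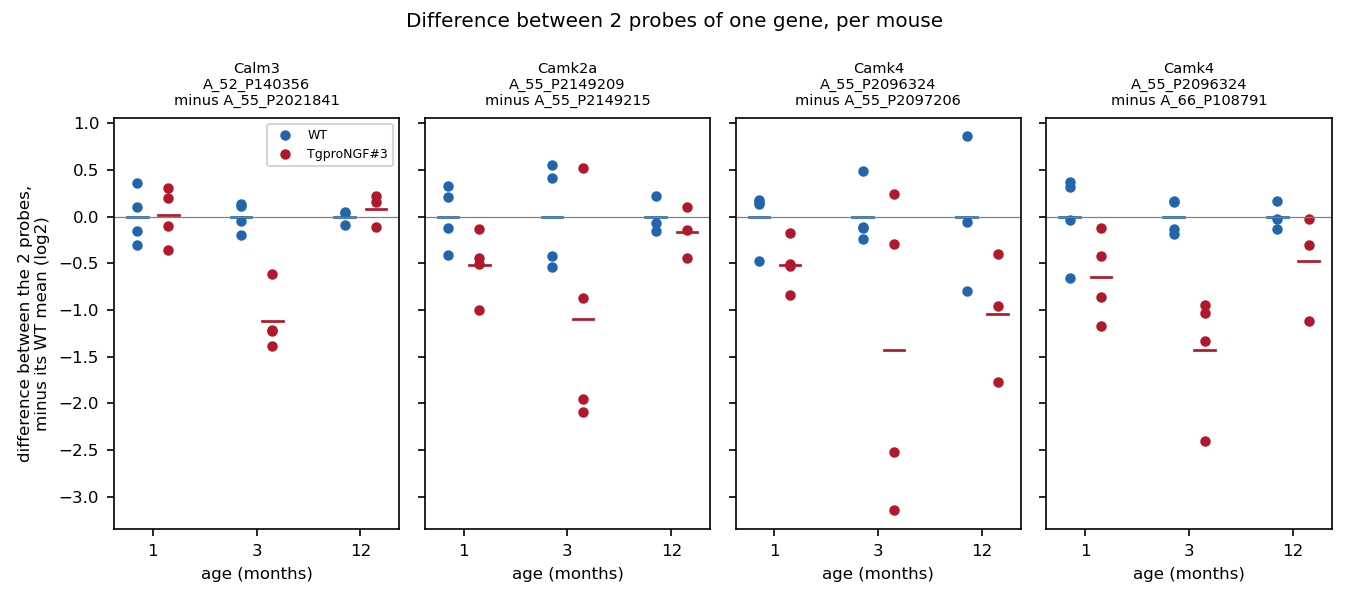
Difference between 2 probes of 1 gene on each array, minus its WT mean at that age (log2, vertical axis), for Calm3, Camk2a and Camk4 at 1, 3 and 12 months, with points for mice and bars for group means. At 3 months the 4 TgproNGF#3 mice lie between -1.39 and -0.62 for Calm3, below all WT mice, and from -2.09 to 0.52 for Camk2a.

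Among 4159 genes with at least 2 probes tested at 3 months, the median spread between the highest and lowest Log2 FC of a gene was 0.34, and spreads grow with the number of probes. Among genes with 2 probes, 93.8% had a smaller spread than Calm3 (1.11), 93.6% a smaller one than Camk2a (1.10) and 47.6% a smaller one than Camk2b (0.27). Among genes with 3 probes, 91.4% had a smaller spread than Camk4 (1.43) and 6.63% a smaller one than Camk2d (0.13). The spread of Camk4 was 0.65 at 1 month and 1.04 at 12 months, where 92.2% and 97.4% of genes with 3 probes had a smaller one. That of Camk2a was 0.52 at 1 month, where 93.7% of genes with 2 probes had a smaller one, and 0.16 at 12 months (54.2% smaller). At 1 month and 12 months the median spread was 0.16 in each. Where on the transcripts these probes lie was not used here, and neither were their sequences.

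Around the means of their groups, the probes of Camk2d varied as 1 measure. Over 22 arrays their Pearson r was 0.95, 0.98 and 0.93, while it was 0.78 for Camk2b, 0.52 for Calm2 and for Calm3, 0.27 for Camkk2 and -0.10 for Camk2a (-0.52 over the 8 arrays of 3 months alone). The probes of Camk4 gave -0.42, 0.68 and 0.04. Between genes, the highest r was that of Camk4 A_55_P2096324 with its upstream kinase, Camkk2 A_55_P2125684 (0.89), followed by Camk2d A_52_P188261 with Camk4 A_66_P108791 (0.85). Camk2a A_55_P2149209 went with both Camk2b probes (r of 0.80 and 0.77) and with Camk4 A_55_P2096324 (0.85), and Camk2a A_55_P2149215 went with Camk2g (0.79). Nrgn ran against Camk2g (-0.69). These correlations are descriptions over points that share an array and its scaling.

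**Figure D4:**
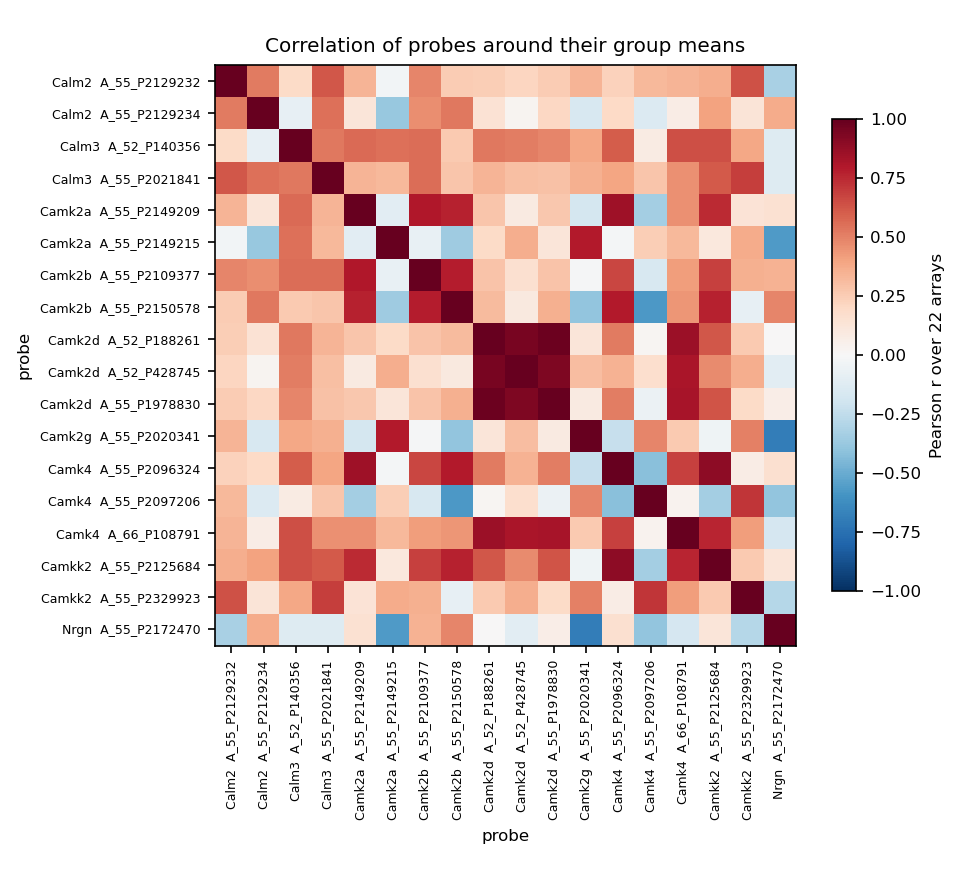
Pearson r between the 18 member probes over 22 arrays, each level taken minus the mean of its genotype and age (red positive, blue negative). The 3 Camk2d probes form a dark red block (0.93 to 0.98), while the 2 Camk2a probes give -0.10 and Camk4 A_55_P2096324 and A_55_P2097206 run against each other (-0.42).

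Genes whose pattern was most like the brightest probes of Calm3 and Camk2a were sought among 28898 probes measured on all 22 arrays, after centring each age on its mean. Calm3 A_55_P2021841 was followed most closely by Ptprs, a receptor tyrosine phosphatase (r = 0.94), Eif4a1, a helicase of translation initiation (0.92), and Hacd3 (0.90). These had a Log2 FC of -0.58, -0.60 and -0.64 at 3 months. Camk2a A_55_P2149215 was followed by Arhgef2, Cyb561d1 and the NMDA receptor subunit gene Grin2c (0.86, 0.85 and 0.85), with a Log2 FC of -0.31, -0.25 and -0.49. These values rest on the genotype difference of 3 months as well as on the spread between mice.

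The rest of the pathway was read from a list of 70 further genes, each through its brightest probe, and this list too was written with results of these data known. At 3 months 1 of the 67 genes tested passed an adjusted p below 0.05 (limma, over all probes), in the lower direction, and none in the higher, where 4.49% of all 15762 genes were lower and 2.05% higher by the same measure. The median Log2 FC of the list was -0.13 and that of all genes -0.05. That gene was Camk2n1, which encodes an inhibitor of calmodulin kinase II. Its level was between 2.42 and 2.78 in TgproNGF#3 and between 2.99 and 3.42 in WT, a Log2 FC of -0.58 (SE 0.15, adjusted p = 0.0459, 4 and 4 mice). Its call was near the threshold and was lost under 6 of the other settings and on leaving out 7 of the 8 mice in turn. With dim spots kept, or with the percentile taken over all spots, genes of the list passed in the higher direction instead, as given below.

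By role, the list counted 0 lower and 0 higher in every other class at 3 months. Calcineurin and its regulators, the phosphatase arm of calmodulin signalling, had 8 genes tested, a median of -0.03 and 3 genes at an unadjusted p below 0.05. Unadjusted p-values below that level were also found in 6 of the 17 other kinases and relatives, 2 of the 9 calmodulin binders, 4 of the 16 regulated enzymes and channels and 3 of the 15 transcription factors. These 18 of 67 genes stand beside 24.9% of all genes below that level, and nothing is read from the tally by class. Among genes named after their values were seen, Rcan3, a calcineurin inhibitor, had a Log2 FC of 0.55 (SE 0.16, adjusted p = 0.0643), and Nos1, the neuronal nitric oxide synthase, -0.94 (SE 0.27, adjusted p = 0.0709). Mylk, a myosin light chain kinase, had -1.36 (SE 0.44, adjusted p = 0.0872). In these 3 genes the groups did not overlap, and 1 TgproNGF#3 array had no value for Nos1.

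**Figure D5:**
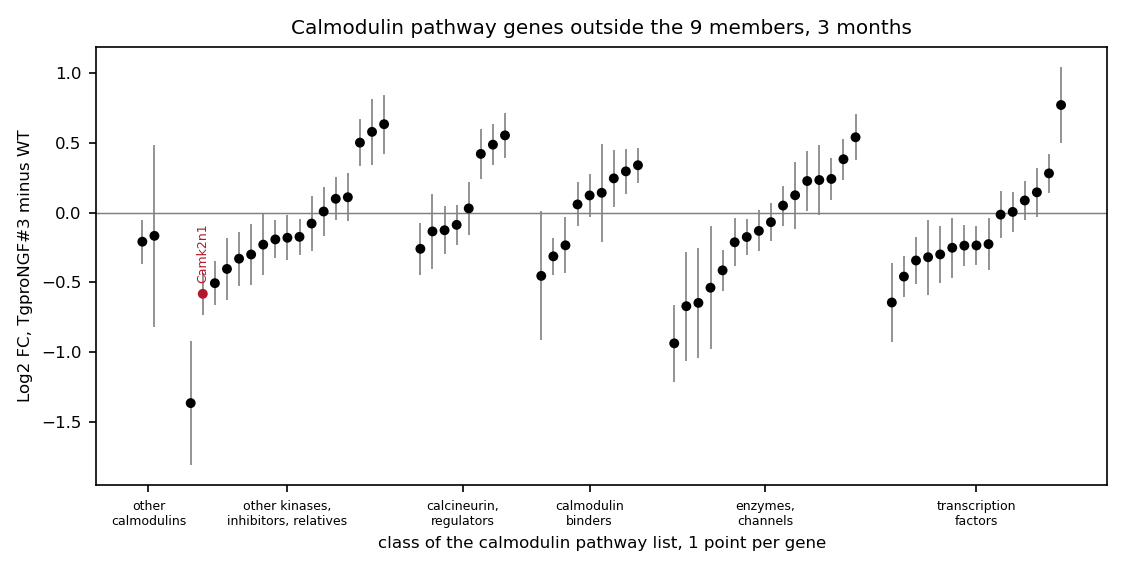
Log2 FC (TgproNGF#3 minus WT, points) and standard error (bars) at 3 months of the 67 tested genes of the pathway list outside the 9 members, 1 point per gene ordered by value within each class. Camk2n1 (red, -0.58) is the gene past an adjusted p of 0.05, and the values run from -1.36 for Mylk upwards on both sides of 0.

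At 1 month none of 69 tested genes of the list passed an adjusted p below 0.05 in limma, and 3 had an unadjusted p below 0.05, where 2.87% of all genes did. The smallest were those of Marcksl1, a calmodulin-binding relative of Marcks (Log2 FC 0.42, SE 0.16), and Pde1a, a calmodulin-dependent phosphodiesterase (-0.56, SE 0.24). At 12 months none of 67 passed and 2 had an unadjusted p below 0.05, where 8.1% of all genes did. These were Nfatc2 (-0.58, SE 0.21) and Pde1a (0.56, SE 0.21), both with an adjusted p of 0.549. The sign of Pde1a at 12 months was thus opposite to that at 1 month, and the difference was not tested. The list medians were 0.06 at 1 month and 0.09 at 12 months, against 0.07 and 0.06 for all genes.

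Marker lists of the cell types a hippocampal dissection can hold were read beside the members. The value of a list is the log2 of the sum of the unlogged levels of its markers, so bright markers weigh most. At 3 months that of the 7 markers of excitatory forebrain neurons lay between 3.43 and 4.27 in TgproNGF#3 and between 3.91 and 4.35 in WT. The difference was -0.18 with overlap, and 6 of the 7 markers were lower. The 5 CA1 markers gave -0.18 with overlap and 4 of 5 lower. The 3 CA3 markers measured of 5 gave -0.42 with overlap, all 3 lower. The 6 dentate granule markers gave 0.07 with overlap, with 4 lower and 2 higher. Astrocyte markers gave -0.14 (5 of 6 lower) and microglia markers -0.26 (2 of 5 lower and 3 higher), both with overlap. The part of these lists in the members called lower at 3 months was not tested. Interneuron markers differed by 0.33 with overlap (5 of 7 higher and 2 lower). The summed level of the oligodendrocyte markers was higher by 0.31 without overlap (6.07 to 6.28 against 5.62 to 6.01), with 4 of 6 markers higher and 2 lower. The 6 markers of choroid plexus, which borders the hippocampus, differed by -0.94 and spanned 2.61 to 7.05 in TgproNGF#3 and 6.17 to 6.78 in WT, and those of leptomeninges by 0.32 with overlap (7 of 7 higher). At 12 months no member was called and genotype nearly coincided with the array row. CA1 markers lay higher in TgproNGF#3 by 0.38 there (4.291 to 4.489 against 3.792 to 4.287), with 5 of 5 higher. The neocortex list was higher by 0.29, with 3 of 5 markers higher and 2 lower. The microglia list was lower (difference -0.10), with 4 of 5 markers lower and 1 higher. In each of these lists the groups did not overlap. Interneuron markers differed by 0.58 (7 of 7 higher) and choroid plexus markers by -1.08, with overlap.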

How the data were processed

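Total RNA (RNA integrity number checked by the authors) was measured on 22 Agilent 1-colour (Cy3) arrays of the mouse genome. The authors deposited the Feature Extraction intensity of each spot, corrected for background and spatial trend, its quality flags, and a table of log2 values of the same signal aligned between arrays. Spots totalled 62976 per array, and 0 were saturated. From the deposited intensity, controls, outlier spots and those not well above background were dropped, log2 was taken and the 75th percentile of the remaining spots of the array was subtracted. Spots of a probe were averaged. Files of the older and newer slides carry different annotation versions, and 28067 probes (50.4%) received a symbol through their RefSeq transcript, 41 of them through the older version alone. No column was left without a sample (0).

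Within each age, TgproNGF#3 and WT were compared by lmFit and eBayes of limma 3.58.1 (R 4.3.3, two-sided) on all non-control probes with 2 or more values per group, with Benjamini-Hochberg adjustment over all probes. The limma comparison and the calls, at an unadjusted p below 0.05 and a Log2 FC beyond 1 in either direction, follow the study's methods, while the minimum of values and the adjustment were added here. The fit was tested on simulated data. No 2 arrays agreed within noise.

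The members and lists were chosen with earlier results of these data known. Named genes were all members with every probe, for each age at most 3 pathway genes in each direction with adjusted p below 0.05 and groups apart or else the 2 with the smallest p, and the 3 genes most like the brightest probes of Calm3 and Camk2a.

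Replicate numbers were taken as pairs at 1 month, a reading from these data and not from the sample titles. There the departures of same-numbered arrays from the group mean had correlations of 0.579, 0.299, 0.252 and 0.288. The TgproNGF#3 array numbered 4 correlated best with a WT array of another number. The numbers were not taken as pairs at 3 months (-0.361 to -0.026) and 12 months (-0.329 to 0.025). Same-numbered arrays lay in 1 row of the slide at 3 months as at 1 month.

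As alternatives, dim or outlier spots were kept, probes were required on every array or with 3 values per group, the percentile came from all spots, or was replaced by the median or by quantile normalization, normexp with an offset of 50 was applied (planned on mean, run on median signals, which the files hold), the authors' log2 values were used, all arrays shared 1 fit, replicate number or array row entered as a block, the threshold or the probe rule was changed, and mice were left out 1 by 1.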

Additional observations from a re-analysis of the deposited data

Results flagged for a closer look

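The 72 groups of 4 mice share mice between probes, and the rule used has a nominal rate of about 5% of groups, which was not measured here. In 4 of the groups 1 mouse lay far from the other 3 for the width of its group, a share near that rate. These were WT mouse 3 of 1 month (level 5.65) and WT mouse 2 of 3 months (5.36) on Calm2 A_55_P2129232, TgproNGF#3 mouse 4 of 3 months on Calm2 A_55_P2129234 (6.03), and TgproNGF#3 mouse 1 of 3 months on Camkk2 A_55_P2329923 (3.36).

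On 5 member probes every TgproNGF#3 mouse of 1 age lay on 1 side of the WT mean and every TgproNGF#3 mouse of another age on the opposite side. The difference between the ages was not tested, and age cannot be told apart from sex and slide. Calm3 A_52_P140356 had a Log2 FC of -1.63 at 3 months and 0.12 at 12 months, and Calm2 A_55_P2129232 -0.12 and 0.12. Camk2b A_55_P2109377 had -0.73 at 3 months and 0.10 at 12 months, and Camkk2 A_55_P2329923 -0.33 and 0.29. Camk2a A_55_P2149215 had 0.29 at 1 month, -0.47 at 3 months and -0.10 at 12 months. Not all of these signs held, since the 12-month value of Camk2a A_55_P2149215 was 0.08 with the array row as a block and 0.02 without WT mouse 1, and the 3-month value of Calm2 A_55_P2129232 was 0.01 with dim spots kept or with the percentile over all spots. The 12-month value of Camkk2 A_55_P2329923 was 0.02 with the array row as a block.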

How the results depend on the processing

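At 3 months the number of member probes called lower was 3 under 10 of the processing alternatives and with the replicate block, each time the probes of Calm3, Camk2a and Camk4 named above, 2 after normexp correction, and 3 to 4 on leaving out each mouse. With the adjusted p in place of the fold threshold it was 4. At 1 month, where the numbers were taken as pairs, and at 12 months it was 0 with and without the replicate block, and without WT mouse 3 of 12 months 1 probe was called higher. Of the values of single probes, 622 under the processing alternatives and 396 on leaving out a mouse moved by less than the spread between mice and 26 by more, none with a called sign reversed. Those 26 were of Calm2 and Calm3 at 3 months and of 12 months otherwise, where the array row as a block turned 4 of their signs. Over the processing alternatives 12 to 13 members were below 0 at 3 months, 6 to 13 at 1 month and 2 to 9 at 12 months.

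In the pathway list at 3 months, 1 gene was lower and 0 higher. The lower count was 3 with a gene's probes averaged and 3 with all 22 arrays in 1 fit, and 0 with dim spots kept, with the percentile over all spots, with arrays aligned to the median, with quantile normalization, with the replicate block and with the array row as a block. The higher count was 2 with dim spots kept, 6 with the percentile over all spots, 4 with the authors' log2 values and 2 with all 22 arrays in 1 fit. Leaving out each mouse gave 0 to 1 lower and 0 to 5 higher. The cause was not tested. Over all probes, the processing alternatives with all mice gave 39 to 230 lower and 9 to 208 higher calls at 1 month (133 and 98 in the report), 1155 to 3142 and 79 to 758 at 3 months (2056 and 216), and 155 to 1137 and 17 to 200 at 12 months (338 and 106), and moved the median Log2 FC over 0.001 to 0.12, -0.14 to 0.01 and -0.12 to 0.16. Leaving out each mouse gave 53 to 262 and 47 to 224 calls at 1 month, 1578 to 2574 and 179 to 322 at 3 months, and 177 to 683 and 25 to 312 at 12 months, with medians of 0.003 to 0.14, -0.16 to -0.06 and -0.03 to 0.07. All members were well above background, but Camk4 A_55_P2096324 lost its call under normexp correction (-0.91 in place of -1.57).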

Other observations

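Genes most like the member probes with the largest differences were read as well, a choice made after their values were seen. Calm3 A_52_P140356 was followed over 22 arrays by probes of Macf1, which links actin and microtubules, Dcaf6 and Tet2, a DNA demethylase, with a Pearson r of 0.98, 0.97 and 0.96. Their Log2 FC at 3 months was -1.14, -2.58 and -2.52. Camk2a A_55_P2149209 was followed by probes of Sptan1, an alpha spectrin, the glutamate transporter gene Slc1a2 and the sodium channel gene Scn8a (0.98, 0.98 and 0.97), with a Log2 FC of -1.94, -1.61 and -2.10. None of these 6 genes was among those most like the brightest probes of Calm3 and Camk2a. The values share arrays and the genotype difference of 3 months, and are given as a description.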
